A study of Mus musculus with 16 samples.

Results

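The ER chaperone and unfolded protein response module was a list of 32 genes of the endoplasmic reticulum (ER), described across the 4 groups of the study. It was chosen by symbol, with earlier results of these data known, so that its shares set against all genes describe the list and do not test it. All 32 were found among the 33072 genes of the count table. The groups were 4T1 cells, a metastatic line, and 67NR cells, a non-metastatic line, both from a spontaneous mammary carcinoma of the BALB/c mouse strain. Cells of each line had been grown for 24 h with vehicle (DMSO) or with CIX at 15 µM, an inhibitor of cytosolic phospholipase A2α, in fresh medium with fetal bovine serum. Each group had 4 samples, 16 in all, and they are named here by the sample numbers of their labels, which no groups share. Each arm of the study was a single line in culture, so that a difference between 4T1 and 67NR is one between 2 lines and not between 2 classes of tumor.

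The ER folds secreted and membrane proteins. Its chaperones, above all BiP (Hspa5), hold unfolded chains, lectin chaperones and disulfide isomerases complete their folding, and a ubiquitin ligase complex built on Syvn1 and Sel1l sends failed chains to the proteasome. When unfolded protein accumulates, the sensors Atf6, IRE1 (Ern1) and PERK (Eif2ak3) start the unfolded protein response, in which cleaved ATF6 and the spliced form of Xbp1 raise transcription of the chaperone and degradation genes. Tumor cells with a high secretory load often keep part of this response active.

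The promoters of the module show the DNA word by which these factors act, the ER stress response element (ERSE), made of CCAAT and CCACG with 9 bases between them. In the RefSeq promoter table (build GRCm38.p6, 250 bases before to 50 bases after each start), 27 members had 28 windows. Atf6, Derl1, Hyou1, Manf and Sec61a1 had none. The ERSE, searched on both strands, was present in 9 of the 28 windows (32.1%), those of Hspa5, Hsp90b1, Calr, Canx, Pdia6, Creld2, Dnajc3, Syvn1 and Derl3, against 0.119% of all 32851 windows. The related ERSE-II, which is ATTGG and CCACG with 1 base between them, was present in the windows of Herpud1 and Dnajb11 (7.14%, against 0.0365% of all windows). TGACGTG, the core of another ATF6 and XBP1 site, was found only in the Hspa5 window among members (3.57%, against 2.01% of all), and TGATGNAA, the site of ATF4 and its partners, only in that of Herpud1 (3.57%, against 3.97%). A match describes these letters and does not show that a factor was bound.

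The 3 promoters printed here were chosen because the main results below turn on these genes: BiP, the central chaperone, Syvn1, the gene with the largest response, and Herpud1, whose response differed between the lines. The 250 bases before the start are given 5′ to 3′ on the strand of the gene, with the ERSE or, for Herpud1, the ERSE-II in capitals. They lie at chr2:34771840-34772089 (Hspa5, plus strand), chr19:6046326-6046575 (Syvn1, plus strand) and chr8:94386179-94386428 (Herpud1, plus strand). In GENCODE vM21 the genes start at 34771970, inside the stretch shown, for Hspa5, and at 6046576 and 94386438, just after it, for Syvn1 and Herpud1.
Hspa5: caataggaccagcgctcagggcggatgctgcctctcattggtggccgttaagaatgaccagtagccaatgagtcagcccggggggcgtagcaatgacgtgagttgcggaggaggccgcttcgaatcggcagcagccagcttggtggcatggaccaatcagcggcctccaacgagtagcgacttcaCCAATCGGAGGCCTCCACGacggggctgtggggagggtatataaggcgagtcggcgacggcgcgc
Syvn1: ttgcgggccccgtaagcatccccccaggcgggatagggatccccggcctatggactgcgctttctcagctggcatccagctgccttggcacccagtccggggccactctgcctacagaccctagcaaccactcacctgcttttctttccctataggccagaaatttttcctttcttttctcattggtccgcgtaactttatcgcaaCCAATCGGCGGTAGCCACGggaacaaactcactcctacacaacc
Herpud1: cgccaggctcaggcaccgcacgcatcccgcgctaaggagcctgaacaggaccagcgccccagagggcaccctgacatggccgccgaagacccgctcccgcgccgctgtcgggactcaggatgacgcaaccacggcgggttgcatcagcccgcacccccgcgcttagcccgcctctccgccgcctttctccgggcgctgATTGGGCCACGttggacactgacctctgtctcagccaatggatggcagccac

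Between 21715700 and 29450629 estimated counts were obtained per sample, and 3 counts, the smallest level taken as detected, corresponded to 0.102 to 0.138 CPM, which covers counting error only. CPM is the count scaled to the library total, here after TMM scaling, and levels are given in it. Of the 32 members, 31 passed the filter on low values in every comparison. Derl3, a paralog of Derl1 and Derl2 of secretory cells, did not, since its highest level in any sample was 0.247 CPM. The lines differed in cell type markers: the summed level of 6 epithelial markers was 3333 to 3889 CPM in 4T1 with vehicle and 4034 to 4311 CPM with CIX, and 2.38 to 6.18 and 1.32 to 4.49 CPM in 67NR, although both lines are labelled mammary carcinoma. With CIX in 4T1, Krt7 (963 to 1278 against 1376 to 1534 CPM), Krt18 (998 to 1116 against 1180 to 1247 CPM) and Krt14 (at most 0.643 against 1.30 to 4.56 CPM) were higher and Epcam lower (307 to 317 against 176 to 204 CPM), while Cdh1 and Krt8 overlapped. The summed level of 6 mesenchymal markers was 2473 to 3224 CPM in 4T1 with vehicle and 4336 to 5247 CPM with CIX, and 6028 to 6905 and 9140 to 9945 CPM in 67NR. Of these 6, Vim (1003 to 2875 CPM in 4T1, 4537 to 8347 CPM in 67NR), Cdh2 (at most 0.0802 CPM in 4T1, 142 to 196 CPM in 67NR) and Zeb1 (at most 0.772 CPM in 4T1, 51.0 to 72.9 CPM in 67NR) were higher in every 67NR sample, Fn1 was higher in 4T1 with vehicle (1323 to 2080 against 1165 to 1320 CPM), and Col1a1 and Col3a1 were at 4.66 CPM or less in both lines. Of 6 immune and endothelial markers, only the macrophage marker Cd68 was abundant, at 51.4 to 87.9 CPM in 4T1 with vehicle and 132 to 199 CPM with CIX, and at 7.52 to 11.8 and 34.6 to 40.3 CPM in 67NR. The defining markers Ptprc, Adgre1 and Cd3e were at 0 to 1.40 CPM in all samples. The part of these marker shifts with CIX in the response of the module was not tested. Some libraries stood apart for the module. Vehicle sample 3 of 4T1 was the highest of its group in 25 of the 31 members (80.6%), and in 35.6% of all 12629 genes tested in either line, so that the main counts of members for CIX in 4T1 are given with and without it. Vehicle sample 13 of 67NR was highest in 8 members (25.8%, against 27.9% of all genes). Its summed member level was 12510 CPM, against 8271 to 9203 CPM in the others of its group. In CIX sample 12 of 4T1 the sum was 8156 CPM, against 6238 to 6958 CPM in the others.

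The most abundant members in both lines were chaperones and disulfide isomerases, although not all chaperones were abundant. Per length, the most abundant member in 4T1 cells with vehicle was Hspa5, at 1839 ± 472 TPM (the length-scaled measure; SD, n = 4), followed by Hsp90b1 (1035 ± 468 TPM), P4hb (821 ± 82.9 TPM), Calr (751 ± 54.7 TPM) and Pdia3 (700 ± 81.7 TPM). In 67NR cells with vehicle, Hsp90b1 was at 1742 ± 1344 TPM, P4hb at 1013 ± 59.3 TPM, Calr at 1002 ± 63.1 TPM and Hspa5 at 804 ± 45.4 TPM. The means of P4hb, Calr and Pdia3 in 4T1, and those of P4hb, Calr and Hspa5 in 67NR, lay within 1 SD of the mean of Hsp90b1, whose SD in 67NR rests on sample 13, described below. The sensors were lower, at 53.6 ± 3.08 TPM for Atf6, 32.8 ± 9.17 TPM for Ern1 and 31.8 ± 3.89 TPM for Eif2ak3 in 4T1 with vehicle. The means of the cochaperones Dnajc3 (20.3 ± 8.16 TPM) and Dnajb9 (13.1 ± 0.992 TPM) there lay below those of the sensors. Sec61g was lowest among the tested members in that group at 7.43 ± 3.14 TPM. Of the 31-base words of the Sec61g transcripts 15.7% also occur in transcripts of another gene, as do 23.5% for Sec61b, 10.8% for Dnajb9 and 8.60% for Derl1, so that their levels are less certain.

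The first comparison asked how the module responded to the inhibitor in the metastatic line. In 4T1 cells 6 of 9 chaperones and 5 of 6 lectin chaperones and isomerases fell after CIX at an adjusted p below 0.05. So did 4 of 8 degradation genes and 1 of 4 genes of the translocon, the entry channel of the ER. Of the 3 sensors and Xbp1, 1 fell and 2 rose. The largest response among the members was that of Syvn1. In RNA from whole cultures, a change in every cell and a change in the share of cells that express a gene cannot be told apart. At the threshold of the study, a Benjamini-Hochberg adjusted p-value below 0.001 in limma-voom over all genes, 1 of 31 members was called (3.23%), against 9.28% of the 11676 genes tested. This count was 8 by DESeq2 (against 26.5% of all genes) and 8 in a common fit of all 16 samples (against 23%). Over all genes, the fit within 4T1 called 1084 and the common fit 2688. The paper reports more called genes than either fit, and its number lies nearer that of the common fit. It does not state which samples entered its model, so that the single call may not be the count under its own fit. At a second threshold of 0.05 in the fit within 4T1, 17 members fell (54.8%, against 20.8% of all genes) and 3 rose (9.68%, against 21.9%). The median log2 fold change of the members was -0.419, against -0.007 for all genes, and 27 of 31 were below 0 (87.1%, against 50.4%). In 14 members the CIX samples were entirely below the vehicle samples (45.2%, against 17.3%), and in 2 they lay above (6.45%, against 22.3%). Without vehicle sample 3, 15 members fell at 0.05 (against 19.8% of all genes then), 3 rose, the median was -0.324, and 14 members had CIX samples entirely below the vehicle samples (against 20.2% of all genes then). Of the 17 members that fell, 10 passed 0.05 whichever single sample was left out (Dnajb9, Eif2ak3, Herpud1, Hyou1, P4hb, Pdia3, Pdia4, Sdf2l1, Ssr1 and Syvn1), as did 1 of the 3 that rose, Atf6. The matching share over all genes was not counted, so that this does not set the members apart from other genes.

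In the non-metastatic line, 6 of 9 chaperones and 4 of 6 lectin chaperones and isomerases fell after CIX at 0.05. So did 3 of 4 translocon genes and 1 of 8 degradation genes (against 9.25% of all genes). Of the sensors and Xbp1, 0 fell and 1 rose. In 67NR cells 1 member was called (3.23%), against 0.389% of the 11583 genes tested, and 10 by DESeq2 (against 8.99%). At 0.05, 14 members fell (45.2%, against 9.25%) and 1 rose (3.23%, against 8.5%). The median log2 fold change was -0.298, against -0.006 for all genes, and 25 of 31 members were below 0 (80.6%, against 50.9%). The CIX samples were entirely below the vehicle samples in 15 members (48.4%, against 10.8%) and above them in 1 (3.23%, against 12.5%). Without vehicle sample 13, which is described below, 12 members fell at 0.05 (against 10.1% of all genes then). These held 2 of the 4 translocon genes and 0 of the 8 degradation genes. Of the 14 that fell, 10 passed whichever single sample was left out (Calr, Creld2, Dnajb11, Dnajc3, Manf, P4hb, Pdia3, Pdia6, Sdf2l1 and Sec61b). Here too the matching share over all genes was not counted. Both lines together, which share no samples, had 9 members that fell in each at 0.05: Calr, Creld2, Dnajb11, Dnajc3, P4hb, Pdia3, Pdia6, Sdf2l1 and Ssr1 (29% of members, against 2.77% of the 10630 genes tested in both). Without sample 3 of 4T1 these were 7 (22.6%, against 2.38%), Creld2 and Dnajb11 no longer passing. Over the samples left out of 4T1 the number lay between 4 and 11, with 4 without CIX sample 8 (against 2.05% of genes) and 5 without CIX sample 16 (against 2.22%), and over those left out of 67NR between 8 and 9. P4hb, Pdia3 and Sdf2l1 were among them each time.

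**Figure D1:**
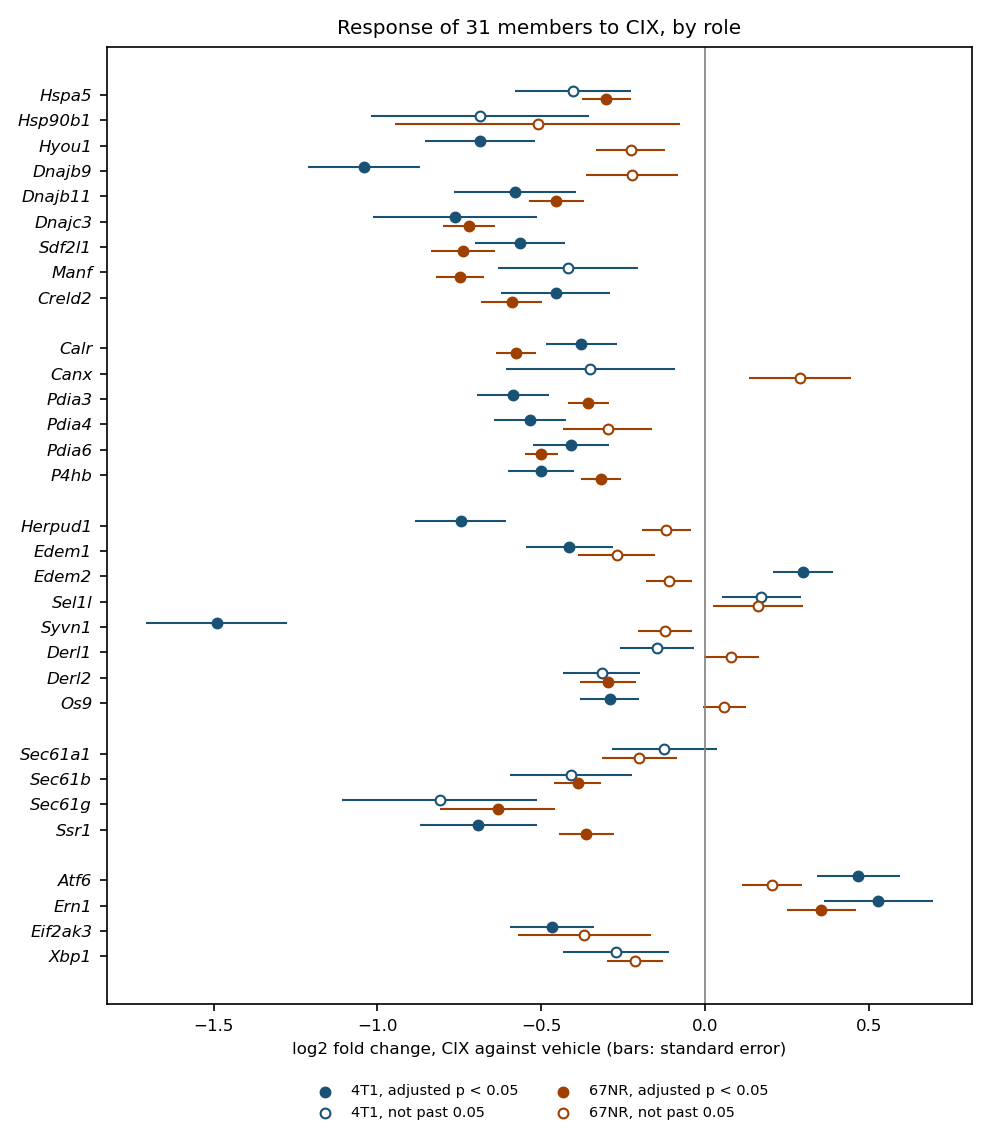
Log2 fold change of CIX against vehicle (x axis) for the 31 tested members, grouped by role from chaperones at the top to the sensors at the bottom, in 4T1 (blue) and 67NR (brown). Points are limma-voom estimates, bars their standard errors, and filled points passed an adjusted p of 0.05. Most points lie left of 0, Syvn1 in 4T1 lies furthest left at -1.49, and Atf6 and Ern1 lie right of 0 in both lines.

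Syvn1, the ubiquitin ligase also known as HRD1 that marks misfolded ER proteins for degradation, had the largest change. In 4T1 cells with vehicle its levels were 244, 148, 112 and 171 CPM in samples 3, 7, 11 and 15, and with CIX they were 64.6, 59.1, 60.0 and 55.5 CPM in samples 4, 8, 12 and 16. In 67NR cells they were 77.1, 79.3, 80.2 and 80.1 CPM with vehicle and 64.9, 80.3, 71.0 and 79.0 CPM with CIX. The vehicle samples of 4T1 thus lay above all 12 other samples and spread widely, and the CIX samples of 4T1 lay below all samples of 67NR. In 4T1 Syvn1 fell to 0.356 of the vehicle level, with a log2 fold change of -1.49 ± 0.22 (SE) and an adjusted p of 7.01e-04 in limma-voom. The exact 2-sided permutation test gave p = 0.0286, the smallest that 4 against 4 samples allow. In 67NR the log2 fold change was -0.12 ± 0.08 (adjusted p = 0.341, limma-voom), and the groups overlapped. The difference between the responses, tested as an interaction over all 16 samples, was -1.37 ± 0.24 (adjusted p = 6.72e-04). The 4T1 call was kept without sample 3 (log2 fold change -1.30, adjusted p = 6.76e-04) or 11, and was lost when sample 4, 7, 8, 12, 15 or 16 was left out (adjusted p 0.00152 to 0.00319, log2 fold change -1.53 to -1.45). The interaction was likewise kept without sample 3 or 11 and lost without any of the others, at adjusted p 0.00102 to 0.00198.

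Manf, a secreted ER protein that is induced in ER stress and protects cells from it, was the member called in 67NR. Its levels with vehicle were 159, 165, 160 and 173 CPM in samples 1, 5, 9 and 13, and with CIX 107, 90.0, 100 and 98.4 CPM in samples 2, 6, 10 and 14. The groups did not overlap, and the log2 fold change was -0.75 ± 0.07 (adjusted p = 8.78e-04 in limma-voom, exact permutation p = 0.0286). Leaving out any of the 8 samples raised the adjusted p to between 0.00104 and 0.00493, so that the call at 0.001 was lost each time, with a log2 fold change of -0.77 to -0.70. Of all genes, 0 were called without sample 5, 6, 9, 10 or 14. Without sample 1, 2 or 13, 2, 69 and 15 genes were called. In 4T1 the levels were 282, 149, 138 and 146 CPM with vehicle and 142, 118, 146 and 123 CPM with CIX. Sample 3 was again far above the rest and the groups overlapped, and neither the response (log2 fold change -0.42 ± 0.21, adjusted p = 0.144, and -0.18 without sample 3) nor the difference from 67NR (0.33 ± 0.24, adjusted p = 0.342) passed a threshold in limma-voom. Without sample 3 the difference between the responses was 0.56 (adjusted p = 0.00209).

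**Figure D2:**
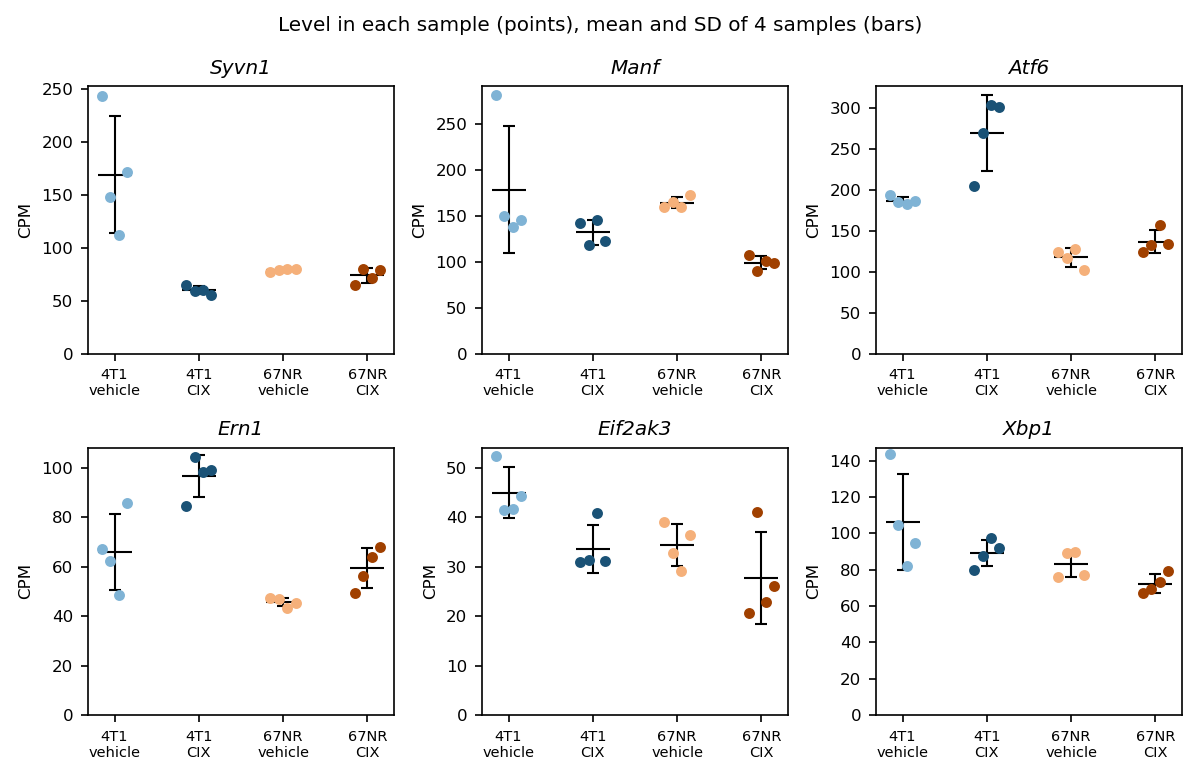
CPM in each sample (y axis, from 0) of the 2 called members, Syvn1 and Manf, and of the sensors with Xbp1, in the 4 groups. Points are samples, and horizontal marks with bars are the mean and SD of 4 samples. Syvn1 drops to 55.5 to 64.6 CPM with CIX in 4T1, Manf to 90.0 to 107 CPM with CIX in 67NR, and Atf6 and Ern1 are higher with CIX in 4T1.

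Of the 3 sensors, Atf6 and Ern1 rose and Eif2ak3 fell in 4T1 at 0.05. Atf6, the membrane-bound factor whose cleaved form induces the chaperones, was at 193, 185, 182 and 186 CPM with vehicle and at 204, 269, 303 and 301 CPM with CIX in 4T1. All CIX samples lay above all vehicle samples, and Atf6 rose by 0.47 ± 0.13 on the log2 scale (adjusted p = 0.015, limma-voom). In 67NR its levels of 124, 117, 127 and 101 CPM with vehicle overlapped those of 124, 132, 156 and 133 CPM with CIX (0.20 ± 0.09, adjusted p = 0.161). Ern1, the kinase and nuclease that splices Xbp1 mRNA, was at 67.3, 62.2, 48.4 and 85.5 CPM with vehicle and at 84.5, 104, 98.2 and 99.2 CPM with CIX in 4T1. It rose by 0.53 ± 0.17 (adjusted p = 0.0284), with 1 vehicle sample inside the range of the CIX samples, and no longer passed 0.05 without sample 7, 8, 11, 12 or 16 (adjusted p 0.0524 to 0.0695) or with scaling by library size only (0.0512). In 67NR, Ern1 was at 47.3, 46.8, 43.4 and 45.1 CPM with vehicle and at 49.4, 56.3, 64.0 and 68.0 CPM with CIX. These groups did not overlap, and Ern1 was the member that rose in 67NR (0.35 ± 0.11, adjusted p = 0.0484 in limma-voom), a call lost without any of samples 1, 5, 6, 9, 10, 13 and 14 (adjusted p 0.0648 to 0.121).

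Eif2ak3, the kinase that slows translation under ER stress, went the other way in 4T1, from 52.4, 41.4, 41.6 and 44.3 CPM with vehicle to 30.9, 31.4, 40.9 and 31.2 CPM with CIX. All CIX samples lay below the vehicle samples, sample 12 by a small margin, and it fell by 0.47 ± 0.13 on the log2 scale (adjusted p = 0.0166, limma-voom). In 67NR it was at 39.0, 32.7, 29.2 and 36.4 CPM with vehicle and at 20.6, 41.2, 22.9 and 26.1 CPM with CIX, with sample 6 above all vehicle samples (-0.37 ± 0.20, adjusted p = 0.243, and -0.58 with adjusted p = 0.0338 without sample 6). Xbp1, the factor that acts after splicing of its mRNA by IRE1, was at 144, 105, 82.3 and 94.8 CPM with vehicle and at 80.1, 87.4, 97.4 and 92.0 CPM with CIX in 4T1. The groups overlapped (-0.27 ± 0.16, adjusted p = 0.204), as they did in 67NR, where Xbp1 was at 76.1, 89.0, 90.0 and 77.4 CPM with vehicle and at 67.5, 69.5, 73.3 and 79.1 CPM with CIX (-0.21 ± 0.08, adjusted p = 0.116). Counts per gene do not separate spliced from unspliced Xbp1. For none of the 4 did the interaction pass 0.05, the values lying between -0.10 and 0.26, with adjusted p of 0.264 to 0.854. Without CIX sample 4 of 4T1, that of Atf6 was 0.39 (adjusted p = 0.0295).

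Of the 9 chaperones and cofactors, 6 fell in 4T1 (against 20.8% of all genes) and 6 in 67NR (against 9.25%) at 0.05, with a median log2 fold change of -0.58 and -0.511. Without sample 3 of 4T1, 4 fell there, with a median of -0.454. The per-sample values of Hspa5, Hsp90b1, Dnajb9, Dnajc3, Herpud1 and Edem2 are given because of their values. Hspa5 was at 2687, 1816, 1554 and 1725 CPM with vehicle and at 1374, 1276, 1893 and 1454 CPM with CIX in 4T1, and at 891, 920, 939 and 898 CPM against 718, 684, 858 and 739 CPM in 67NR. In 4T1, CIX sample 12 lay above 3 vehicle samples, and the change did not pass 0.05 (-0.40 ± 0.18, adjusted p = 0.0924, and -0.24 without sample 3), although it did without sample 11 or 12 (adjusted p = 0.0441 and 0.045) and in a common fit of all 16 samples (0.0242). In 67NR the groups were apart, and Hspa5 fell by 0.30 ± 0.07 (adjusted p = 0.0253, limma-voom), a call lost without sample 2, 5, 6, 9 or 14 (adjusted p 0.059 to 0.0724) and at 0.253 in a common fit of all 16 samples. Dnajb9, the ERdj4 cochaperone that hands chains from BiP to degradation, was at 14.7, 15.0, 13.7 and 12.3 CPM with vehicle and at 5.29, 6.40, 7.91 and 8.67 CPM with CIX in 4T1. In 67NR it was at 6.23, 5.63, 6.50 and 7.62 CPM and at 5.75, 5.03, 6.32 and 5.34 CPM. The CIX samples of 4T1 thus overlapped those of 67NR, with a log2 fold change of -1.04 ± 0.17 (adjusted p = 0.00136) against -0.22 ± 0.14 in 67NR (adjusted p = 0.31).

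Dnajc3, the cochaperone also called P58IPK, fell in both lines at 0.05. It was at 125, 64.2, 56.0 and 65.5 CPM with vehicle and at 58.2, 38.5, 40.6 and 44.5 CPM with CIX in 4T1 (-0.76 ± 0.25, adjusted p = 0.034). In 67NR it was at 41.3, 40.7, 41.4 and 37.4 CPM with vehicle and at 27.8, 22.6, 24.8 and 23.5 CPM with CIX (-0.72 ± 0.08, adjusted p = 0.00129). Vehicle sample 3 was far above the other vehicle samples of 4T1, and without it the log2 fold change was -0.51 (adjusted p = 0.0316). The call in 4T1 was lost without CIX sample 8, 12 or 16 (adjusted p 0.0712 to 0.0861). Sdf2l1, a BiP cofactor, fell from 41.3 ± 7.16 to 28.6 ± 2.16 CPM (SD, n = 4) in 4T1 and from 24.0 ± 2.03 to 14.5 ± 1.25 CPM in 67NR, at adjusted p = 0.00892 and 0.00214. Dnajb11, the ERdj3 cochaperone, fell from 118 ± 31.2 to 80.1 ± 11.6 CPM in 4T1 and from 134 ± 10.9 to 98.5 ± 9.20 CPM in 67NR, at adjusted p = 0.0318 and 0.00817. The call in 4T1 was lost without sample 3, 7, 8, 12 or 16 (adjusted p 0.0556 to 0.0843). Creld2, a secreted ER stress protein, fell from 58.0 ± 14.4 to 42.9 ± 3.93 CPM in 4T1 and from 87.4 ± 11.7 to 58.3 ± 2.07 CPM in 67NR, at adjusted p = 0.0494 and 0.00425. The call in 4T1 was lost without sample 3, 7, 8, 12, 15 or 16 (adjusted p 0.0671 to 0.117). Hyou1, which exchanges the nucleotide of BiP, fell in 4T1 from 336 ± 85.1 to 212 ± 27.8 CPM (adjusted p = 0.00931) and was at 290 ± 19.5 and 252 ± 36.4 CPM in 67NR (adjusted p = 0.171).

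Hsp90b1, the ER form of HSP90 (GRP94), varied widely between the vehicle samples of both lines. With vehicle it was at 807, 1524, 2014 and 715 CPM in 4T1 and at 1112, 1331, 1656 and 5104 CPM in 67NR. With CIX it was at 610, 545, 964 and 919 CPM in 4T1 and at 1685, 1288, 1351 and 1064 CPM in 67NR. Sample 13 of 67NR was thus more than 3-fold above the next sample of its group. The groups overlapped in both lines, and neither change passed 0.05 in limma-voom, at -0.69 ± 0.33 in 4T1 (adjusted p = 0.123) and -0.51 ± 0.43 in 67NR (adjusted p = 0.458, and a log2 fold change of -0.02 without sample 13).

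Of the 6 lectin chaperones and disulfide isomerases, 5 fell in 4T1 (against 20.8% of all genes) and 4 in 67NR (against 9.25%) at 0.05, as they did without sample 3 of 4T1 and without sample 13 of 67NR. Pdia3, the isomerase that works with the lectin chaperones, fell from 604 ± 70.9 to 416 ± 48.7 CPM in 4T1 and from 610 ± 20.5 to 482 ± 25.6 CPM in 67NR (adjusted p = 0.00262 and 0.00633, limma-voom). P4hb, the classical protein disulfide isomerase, fell from 828 ± 105 to 602 ± 39.9 CPM and from 1091 ± 27.6 to 886 ± 63.6 CPM (adjusted p = 0.00352 and 0.00985). Pdia6 fell from 507 ± 83.1 to 391 ± 23.7 CPM and from 671 ± 17.5 to 479 ± 12.0 CPM (adjusted p = 0.0187, and 0.0504 without CIX sample 8 of 4T1, and 0.00111). In these 3 isomerases each CIX sample was below every vehicle sample of its line. Calr, the soluble lectin chaperone calreticulin, fell from 660 ± 63.6 to 526 ± 66.0 CPM in 4T1 and from 943 ± 56.8 to 637 ± 6.72 CPM in 67NR (adjusted p = 0.0189 and 0.00125). In 4T1 its groups overlapped and the call was lost without CIX sample 8 or 16 (adjusted p 0.0639 and 0.0579). Pdia4 fell in 4T1 from 240 ± 31.4 to 171 ± 13.0 CPM (adjusted p = 0.00414) and was at 194 ± 37.8 and 158 ± 10.3 CPM in 67NR (adjusted p = 0.161), and the responses were not shown to differ (adjusted p = 0.328). Canx, the membrane-bound lectin chaperone, was at 738 ± 219 and 604 ± 232 CPM in 4T1 and at 807 ± 61.4 and 1015 ± 223 CPM in 67NR, with overlapping groups and adjusted p = 0.299 and 0.234. Its log2 fold change lay between -0.59 and -0.17 over the samples left out of 4T1, and it was 0.46 (adjusted p = 0.0175) without CIX sample 14 of 67NR.

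**Figure D3:**
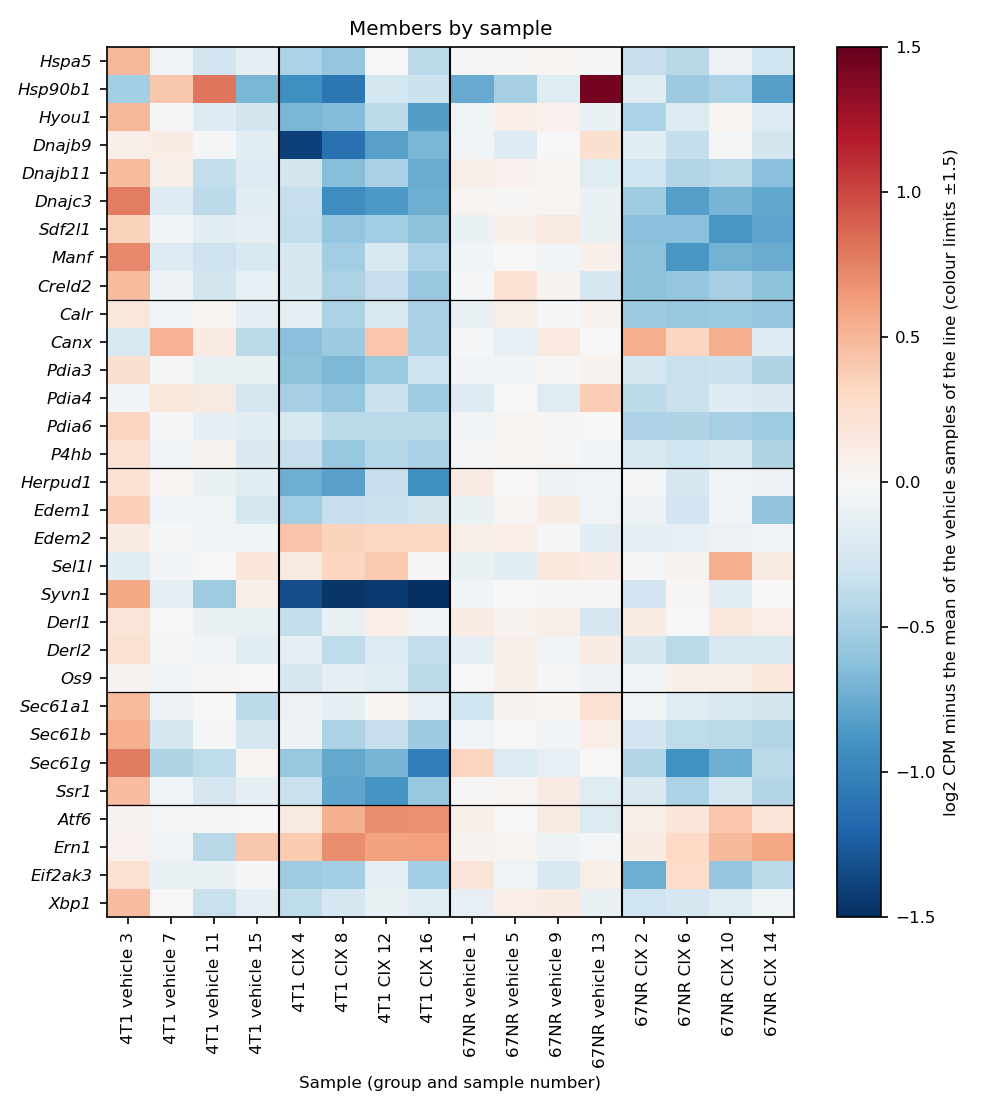
Log2 CPM of the 31 tested members (rows, grouped by role) in all 16 samples (columns), each minus the mean of the 4 vehicle samples of the same line, with colours limited to ±1.5. Vehicle sample 3 of 4T1 is red in most rows, the CIX columns of both lines are mostly blue, and the Syvn1 row is dark blue only with CIX in 4T1.

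Of the 8 tested genes of ER-associated degradation, 4 fell (against 20.8% of all genes) and 1 rose (against 21.9%) in 4T1 at 0.05, with or without sample 3, and 1 fell in 67NR (against 9.25%), Derl2. Herpud1, a membrane protein that gathers the Syvn1 complex, was at 118, 104, 94.9 and 90.9 CPM with vehicle and at 61.0, 57.8, 80.0 and 53.5 CPM with CIX in 4T1. In 67NR it was at 59.7, 55.0, 52.0 and 52.7 CPM with vehicle and at 53.7, 45.8, 53.2 and 51.6 CPM with CIX. The CIX samples of 4T1 lay below all their vehicle samples and, apart from sample 12, near the level of 67NR. The log2 fold change was -0.75 ± 0.14 in 4T1 (adjusted p = 0.00256) and -0.12 ± 0.08 in 67NR (adjusted p = 0.321, limma-voom). Edem2, which trims the sugars of misfolded glycoproteins, was the gene of this role that rose, from 65.0, 58.9, 56.7 and 57.8 CPM with vehicle to 80.1, 75.2, 73.8 and 73.8 CPM with CIX in 4T1, without overlap (0.30 ± 0.09, adjusted p = 0.0251). That call was lost without sample 7, 8, 11 or 15 (adjusted p 0.0565 to 0.0662) and with scaling by library size only (0.0662). In 67NR Edem2 was at 59.6, 60.1, 55.2 and 50.4 CPM and at 51.2, 51.7, 52.9 and 54.6 CPM (-0.11 ± 0.07, adjusted p = 0.307). Its paralog Edem1 fell in 4T1, from 102 ± 19.1 to 77.9 ± 5.71 CPM (adjusted p = 0.0315, and 0.0562 to 0.0630 without sample 4, 7, 8 or 12), and was at 59.1 ± 3.82 and 49.9 ± 8.07 CPM in 67NR (adjusted p = 0.148).

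Os9, the lectin that delivers glycoproteins to the Syvn1 complex, fell slightly in 4T1, from 106 ± 3.52 to 89.6 ± 6.75 CPM (adjusted p = 0.0256, and 0.0580 and 0.0642 without sample 15 or 16), and was at 199 ± 9.62 and 209 ± 12.8 CPM in 67NR (adjusted p = 0.585). Sel1l, the partner of Syvn1 in the ligase complex, did not follow it, at 65.9 ± 6.57 and 76.8 ± 9.16 CPM in 4T1 and 127 ± 14.1 and 145 ± 27.6 CPM in 67NR (adjusted p = 0.275 and 0.457, limma-voom). Derl1, a channel component of the complex, was at 241 ± 23.1 and 225 ± 29.3 CPM in 4T1 and 116 ± 13.2 and 124 ± 6.20 CPM in 67NR (adjusted p = 0.325 and 0.557). Derl2, its paralog, fell in 67NR from 54.1 ± 4.33 to 44.3 ± 2.35 CPM (adjusted p = 0.0437, and 0.0676 to 0.117 without sample 2, 5, 6, 9, 10, 13 or 14), and was at 36.8 ± 4.28 and 30.4 ± 2.44 CPM in 4T1 (adjusted p = 0.0535). In 4T1 it passed 0.05 without CIX sample 4 (0.0366), with either other scaling (0.0276 and 0.0493), by DESeq2 (0.0277) and in the common fit of all 16 samples (0.0111).

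Of the 4 genes of the translocon, the channel through which new chains enter the ER, 1 fell in 4T1 (against 20.8% of all genes) and 3 in 67NR (against 9.25%) at 0.05. Ssr1, a subunit of the translocon-associated complex, fell in both lines, from 189 ± 45.4 to 120 ± 20.6 CPM in 4T1 and from 115 ± 9.93 to 90.2 ± 7.93 CPM in 67NR (adjusted p = 0.0121 and 0.0196, limma-voom). The call in 67NR was lost without sample 1, 5, 6, 9 or 14 (adjusted p 0.0518 to 0.0633). Sec61b, a small subunit of the channel, fell in 67NR from 62.6 ± 3.23 to 48.2 ± 2.17 CPM (adjusted p = 0.00833) and was at 69.97 ± 19.9 and 53.4 ± 7.92 CPM in 4T1 (adjusted p = 0.105). Sec61g, the other small subunit, fell in 67NR from 5.62 ± 0.955 to 3.66 ± 0.601 CPM (adjusted p = 0.0387, and 0.0509 to 0.105 when any sample was left out) and was at 4.29 ± 1.84 and 2.40 ± 0.309 CPM in 4T1 (adjusted p = 0.0515). In 4T1 it passed 0.05 without vehicle sample 7 or 11, with either other scaling, by edgeR and DESeq2 and in the common fit (adjusted p 0.0163 to 0.0492). Sec61a1, the pore subunit, was at 135 ± 35.1 and 125 ± 6.99 CPM in 4T1 and at 218 ± 30.9 and 190 ± 11.7 CPM in 67NR, and passed in neither line (adjusted p = 0.556 and 0.256).

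The responses of the lines were compared by the interaction, 4T1 minus 67NR. Of the 31 members, 1 was called at 0.001 (3.23%, against 7.86% of the 12629 genes tested), and 5 passed 0.05 (16.1%, against 29.3%). The 5 were Syvn1, Dnajb9 (-0.82 ± 0.22, adjusted p = 0.0112), Herpud1 (-0.63 ± 0.16, adjusted p = 0.00848), Os9 (-0.35 ± 0.10, adjusted p = 0.017) and Edem2 (0.41 ± 0.11, adjusted p = 0.00984). Of these, 4 belong to the 8 tested genes of ER-associated degradation. Among 29 further degradation genes, counted below, 5 were lower and 3 higher at 0.05 in the interaction (against 29.3% of all genes). The median over the members was -0.105, against -0.019 for all genes, and became 0.025 without vehicle sample 3 of 4T1.

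**Figure D4:**
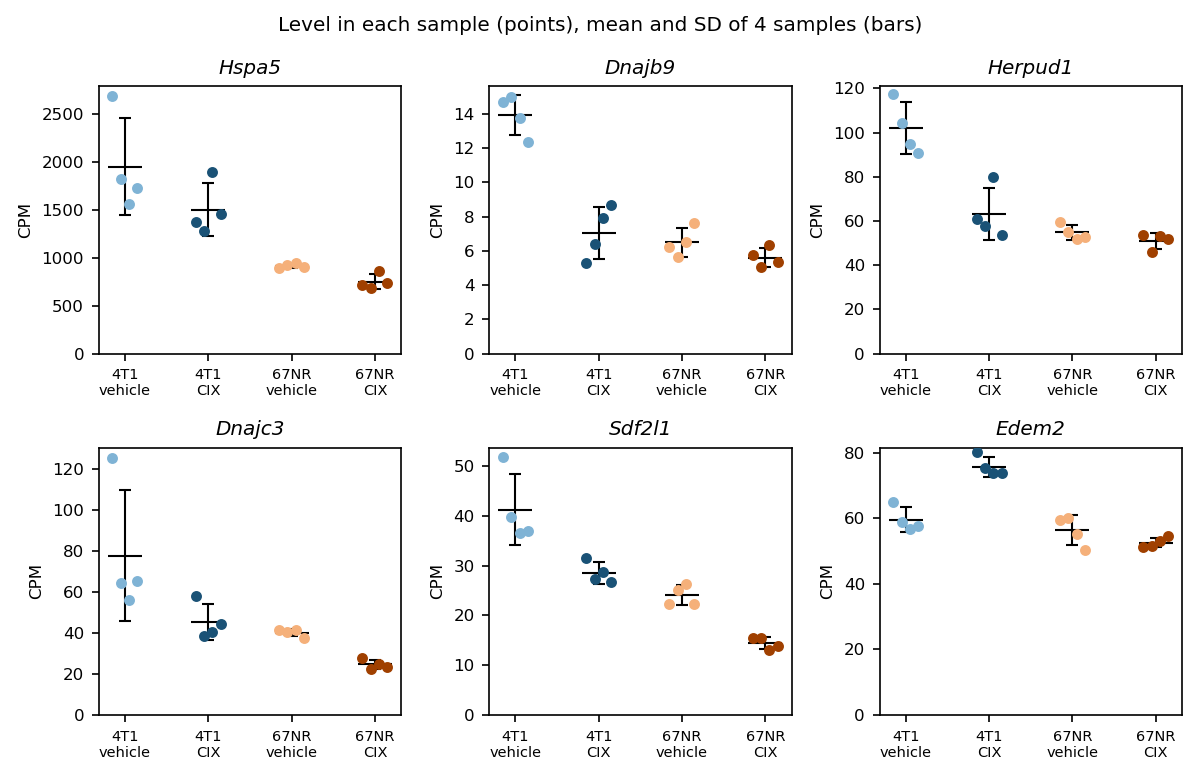
CPM in each sample (y axis, from 0) of Hspa5, Dnajb9, Herpud1, Dnajc3, Sdf2l1 and Edem2 in the 4 groups, with the mean and SD of 4 samples. Dnajb9 and Herpud1 fall with CIX in 4T1 to near their level in 67NR, Dnajc3 and Sdf2l1 are lower with CIX in both lines, and Edem2 is higher with CIX in 4T1 only.

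Members with and without the ERSE had overlapping responses. The 8 tested members with it had a median log2 fold change of -0.433 in 4T1 (range -1.491 to -0.35) and -0.505 in 67NR (-0.721 to 0.29). For the 18 tested members whose window lacked it, these were -0.484 (-1.041 to 0.529) and -0.297 (-0.739 to 0.354). These 18 include Herpud1 and Dnajb11, which hold the ERSE-II. In 4T1, 8 of the 8 and 15 of the 18 were below 0 (against 50.4% of all genes). At 0.05, 5 of the 8 and 11 of the 18 fell in 4T1 (against 20.8% of all genes), as 5 of the 8 and 8 of the 18 did in 67NR (against 9.25%). Syvn1 and Hspa5, which both hold the element at 44 and 65 bases before the start, had log2 fold changes of -1.49 and -0.40 in 4T1. Derl3, whose window also holds it, was at or near 0 in all groups.

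The lines were also compared within each treatment. The summed level of the members was 7757 to 10580 CPM in 4T1 with vehicle and 8271 to 12510 CPM in 67NR with vehicle, and the groups overlapped. The upper end in 67NR was sample 13, with Hsp90b1 at 5104 CPM, and the others were at 8271 to 9203 CPM. Between untreated 4T1 and untreated 67NR cells, 7 members were higher in 4T1 at the 0.001 threshold (22.6%, against 20.4% of the 11057 genes tested) and 3 were lower (9.68%, against 19.6%), shares near or below those of all genes. Hspa5 was higher by 1.06 ± 0.16 on the log2 scale, Dnajb9 by 1.11 ± 0.14, Derl1 by 1.05 ± 0.10, Herpud1 by 0.89 ± 0.10, Sdf2l1 by 0.77 ± 0.13, Edem1 by 0.77 ± 0.13 and Atf6 by 0.68 ± 0.08 (adjusted p 1.74e-05 to 7.49e-04, limma-voom). Sel1l (-0.94 ± 0.11), Os9 (-0.90 ± 0.07) and Calr (-0.51 ± 0.09) were lower in 4T1. In each of these genes the samples of the lines did not overlap. Dnajb9, Derl1, Herpud1, Atf6, Sel1l and Os9 stayed past 0.001 whichever sample was left out. Hspa5 did not without sample 1 (adjusted p = 0.00101), Sdf2l1 without sample 1, 5, 7, 9, 13 or 15 (0.00115 to 0.00376), Edem1 without sample 1, 5, 7, 9, 11 or 13 (0.00104 to 0.00315), and Calr without sample 5, 7, 9, 11 or 15 (0.00119 to 0.00428). Syvn1 was higher by 1.04 ± 0.21 without passing 0.001 (adjusted p = 0.00188), and without vehicle sample 3 of 4T1 the number of members called was 17 (against 42.2% of all genes then).

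With CIX in both lines, 7 members were higher in 4T1 (22.6%, against 18.3% of the 10948 genes tested) and 5 were lower (16.1%, against 15.9%), shares near those of all genes. Leaving out a sample gave 7 to 15 called in place of 12, with 7 without CIX sample 2 of 67NR (against 31.7% of all genes then) and 8 without sample 6, 10 or 16. Hspa5 (0.97 ± 0.12), Sdf2l1 (0.95 ± 0.11), Atf6 (0.95 ± 0.13), Dnajc3 (0.84 ± 0.15), Derl1 (0.84 ± 0.10), Ern1 (0.69 ± 0.12) and Edem2 (0.50 ± 0.08) were higher, while Os9 (-1.25 ± 0.09), Sel1l (-0.93 ± 0.14), Sec61a1 (-0.63 ± 0.08), P4hb (-0.58 ± 0.07) and Derl2 (-0.57 ± 0.09) were lower. Hspa5, Sdf2l1, Derl1, Os9, Sec61a1 and P4hb stayed past 0.001 whichever sample was left out. Atf6 did not without sample 2 or 6 (adjusted p = 0.00107 and 0.00103), nor Sel1l without sample 16 (0.00112), and the calls of Dnajc3, Ern1, Edem2 and Derl2 were lost in 5, 6, 5 and 6 of the 8 cases (0.00114 to 0.00392). Dnajb9, Herpud1 and Syvn1, higher in 4T1 with vehicle at adjusted p of 8.17e-05, 4.3e-05 and 0.00188, were at log2 differences of 0.30 ± 0.18 (adjusted p = 0.186), 0.27 ± 0.13 (adjusted p = 0.0876) and -0.32 ± 0.10 (adjusted p = 0.0171) with CIX. The part of the epithelial and mesenchymal difference between the lines in these values was not tested.

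**Figure D5:**
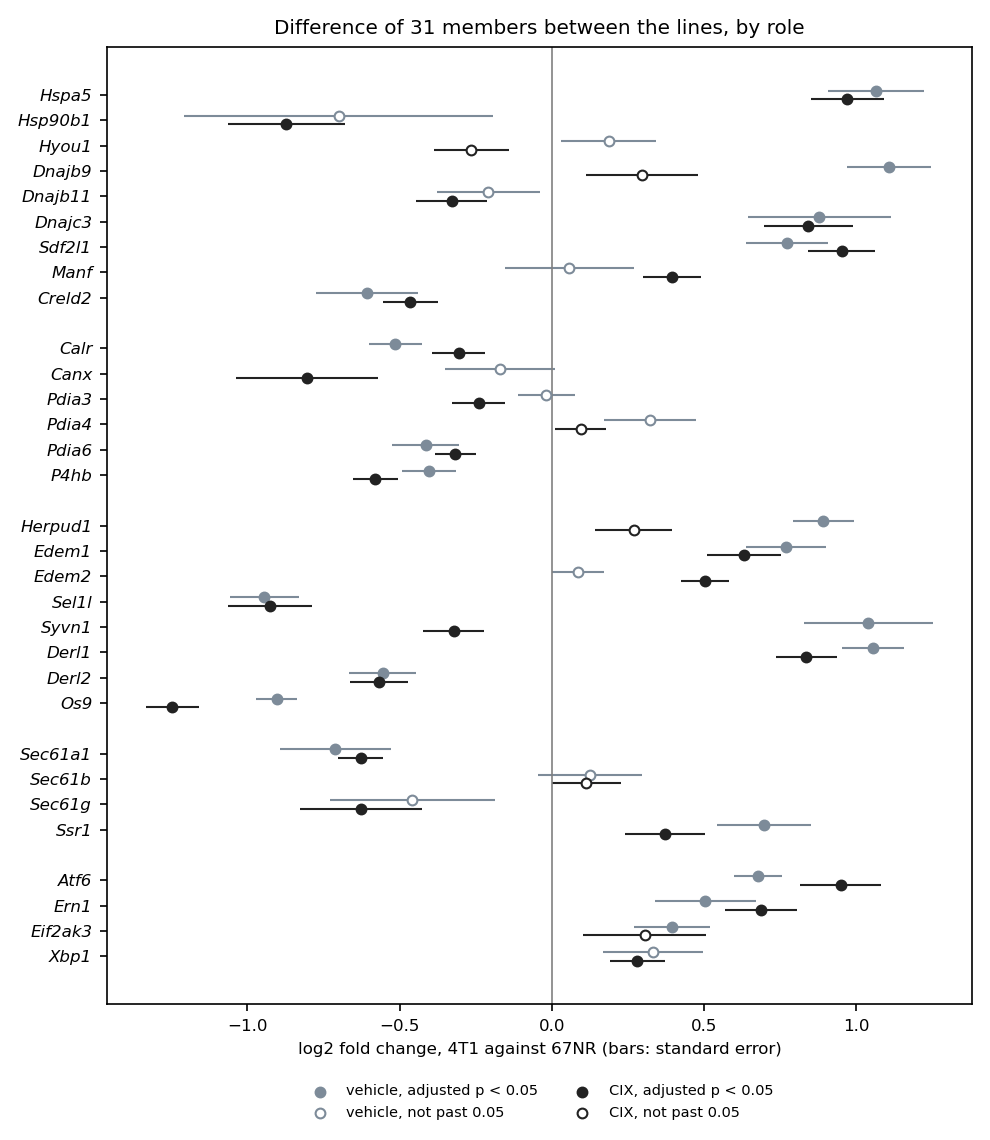
Log2 fold change of 4T1 against 67NR (x axis) for the 31 tested members, grouped by role, with vehicle (grey) and with CIX (black). Bars are standard errors and filled points passed an adjusted p of 0.05. Hspa5, Derl1 and Atf6 lie right of 0 and Sel1l and Os9 left of 0 in both, while Syvn1 moves from 1.04 with vehicle to -0.32 with CIX.

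Further genes of the pathway were counted in 4 lists. Of 19 tested sensors, regulators and stress factors outside the module, such as Atf4, Ddit3 and Trib3, 0 were called in 4T1 at 0.001 by limma-voom and by edgeR and 5 by DESeq2, which called 26.5% of all genes there. At 0.05, 3 fell and 3 rose in limma-voom (against 20.8% and 21.9% of all genes), and 10 had an unadjusted p below 0.05, with a median log2 fold change of 0.036. In 67NR 2 of 18 fell and 6 rose (against 9.25% and 8.5%), with a median of 0.108. Of 34 further folding enzymes and cochaperones, 4 were called lower and 1 higher in 4T1 (against 9.28% called of all genes), and 11 fell and 5 rose at 0.05 (against 20.8% and 21.9%, median -0.216). The largest falls among the called were those of Tmx1 (-0.92 ± 0.14), a membrane-bound thioredoxin, of the prolyl isomerase Fkbp2 (-0.83 ± 0.12) and of the peroxiredoxin Prdx4 (-0.79 ± 0.10), and Fkbp9 rose by 1.03 ± 0.13. In 67NR 12 of the 35 tested passed 0.05, all of them lower (against 9.25%, median -0.164).

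Of 29 further degradation genes, 1 was called in 4T1 (against 9.28% of all genes), higher, namely Aup1, which recruits a ubiquitin conjugating enzyme to the ER, from 28.5 ± 3.24 to 74.1 ± 3.44 CPM (1.33 ± 0.11, adjusted p = 6.71e-05, limma-voom), and at 0.05 6 fell and 3 rose (against 20.8% and 21.9% of all genes, shares at or below the background). In 67NR 0 of 28 passed 0.05 by limma-voom and by edgeR and 3 by DESeq2 (22.6% of all genes by DESeq2), and 3 had an unadjusted p below 0.05 in limma-voom (median -0.009). Aup1 also differed between the responses (1.15 ± 0.16, adjusted p = 1e-04). Of 32 genes of translocation, signal peptidase and oligosaccharyltransferase, 2 were called in 4T1 (against 9.28% of all genes), both higher, Krtcap2 (0.69 ± 0.10) and Srp68 (0.62 ± 0.08), and 11 fell and 4 rose at 0.05 (against 20.8% and 21.9%, median -0.233), while in 67NR 9 fell and 1 rose (against 9.25% and 8.5%, median -0.195). In 67NR limma-voom and edgeR called 0 genes of the 4 lists at 0.001, where DESeq2, which called 8.99% of all genes, called 6 of 18 stress factors, 3 of 35 folding genes, 0 of 28 degradation genes and 5 of 32 translocation genes, and limma-voom gave 10, 19, 3 and 15 of them an unadjusted p below 0.05.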

How the data were processed

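RNA of 16 cultures was sequenced as stranded, poly-A selected libraries with single-end reads. The authors quantified transcripts with Salmon (0.12 in the submitters' processing notes), summed them to genes and deposited estimated counts per gene, not normalized. The study's methods give the mouse build GRCm38, whereas the processing notes name GRCh38. Of the 33072 gene IDs, all of mouse form, 32911 were found in GENCODE vM21 (GRCm38), from which symbols, positions and lengths were taken.

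Rounding to whole numbers preceded each fit. TPM was derived from the deposited estimated counts and the mean transcript length, and a gene was dropped if its TPM was under 1 in more than 3 samples of a comparison (for the interaction, if so in both lines). The test was limma-voom with TMM (limma 3.58.1, edgeR 4.0.16, R 4.3.3), over all genes, with Benjamini-Hochberg adjustment, at 0.001 as in the study and at a second threshold of 0.05. CIX and vehicle were compared over the 8 samples of a line, the responses by an interaction over 16 samples, and the lines within a treatment over 8 samples. Single genes were also tested by exact 2-sided permutation of mean log2(CPM + 0.5). Library totals of 21715700 to 29450629 put the level of 3 counts at 0.102 to 0.138 CPM, depending on the library. The method was tested on simulated data. Words of 31 bases shared between genes were counted in the transcripts.

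All members are named, with values per sample for those called in a CIX comparison or the interaction and for the sensors with Xbp1. Values per sample of Hspa5, Hsp90b1, Dnajb9, Dnajc3, Herpud1 and Edem2 were added after their values were seen. Of the further lists, at most 3 called genes per direction are named. Correlations with Hspa5 over samples were left out, since the samples fall into 2 separate lines. The members and lists were chosen with earlier results of these data known. Alternatives were edgeR's quasi-likelihood test, DESeq2 1.42.0, other scalings and filters, a common fit, and leaving out each sample. The counts at 0.05 under these alternatives, and those by role and in both lines without sample 3 or 13, were added after seeing the data. One further cell type marker of the immune and endothelial list is not reported here.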

Additional observations from a re-analysis of the deposited data

Results flagged for a closer look

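Of 128 sets of 4 samples (32 members in 4 groups), 7 held a sample that stood apart by Dixon's test, where 6.4 would be expected by chance. Hsp90b1 was at 5104 CPM in vehicle sample 13 of 67NR, where the others were at 1112 to 1656 CPM. In vehicle sample 3 of 4T1, Dnajc3 was at 125.3 CPM (others 56.0 to 65.5 CPM) and Manf at 281.8 CPM (others 138 to 149 CPM). With CIX in 4T1, Canx at 950.1 CPM (others 463 to 512 CPM) and Eif2ak3 at 40.91 CPM (others 30.9 to 31.4 CPM) stood apart in sample 12, and Pdia6 at 426.9 CPM (others 379 to 381 CPM) in sample 4. Derl2 was lowest in CIX sample 6 of 67NR, at 40.81 CPM (others 45.4 to 45.6 CPM).

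The response of Syvn1 to CIX differed between the lines by -1.3708 on the log2 scale (adjusted p = 6.72e-04, interaction in limma-voom), with the CIX samples of 4T1 entirely below its vehicle samples while the groups of 67NR overlapped.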

How the results depend on the processing

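The number of members called at 0.001 depended on the tool. With CIX in 4T1 it was 8 by DESeq2 (where 26.5% of all genes were called), 8 with all 16 samples in a common fit (23% of all), 2 with library size only (8.89%) and 20 at 0.05 (42.7%), in place of 1 (9.28%). In 67NR it was 10 by DESeq2 (8.99% of all), 0 without a filter (0.153%) and 15 at 0.05 (17.8%), in place of 1 (0.389%). For the interaction it was 0 without a filter (3.46%) and 5 at 0.05 (29.3%), in place of 1 (7.86%). Between the untreated lines it was 16 by DESeq2 (52%), 17 in the common fit (46.4%) and 20 at 0.05 (67.4%), in place of 10 (40%), and under CIX 25 at 0.05 (63.9%), in place of 12 (34.2%). Of the members lower at 0.05 there were 9 without a filter in 4T1 (11.8% of all genes) in place of 17 (20.8%), and 8 in the common fit in 67NR (5.5%) in place of 14 (9.25%). Of those higher there was 1 with library size only in 4T1 (19.2%) in place of 3 (21.9%), and 0 with library size only (6.79%), without a filter (3.67%) and in the common fit (6.57%) in 67NR in place of 1 (8.5%). Without a filter, 21834 genes in place of 11676 entered the test in 4T1. The cause of none of these changes was tested. Hsp90b1 (adjusted p = 0.0328 by DESeq2) and Manf and Sec61b (0.0445 and 0.0245 in the common fit) passed 0.05 in 4T1 only under those settings.

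Leaving out a sample gave 0 to 1 called members in 4T1 (2.43% to 8.79% of all genes) and 0 to 0 in 67NR (0% to 0.591%). It gave 0 to 1 for the interaction (5.14% to 8.4%), 7 to 17 between the untreated lines (35.2% to 42.2%) and 7 to 15 under CIX (30.3% to 40.9%). At 0.05 it gave 11 to 19 lower and 1 to 3 higher members in 4T1 (16.4% to 22.1% and 17.7% to 22.8% of all genes), 10 to 12 lower and 0 to 1 higher in 67NR (5.52% to 10.1% and 5.2% to 9.62%), and 5 to 6 for the interaction (25.6% to 31%). Without CIX sample 4, Atf6 (adjusted p = 0.000735) was called in 4T1 and Syvn1 was not. Without CIX sample 8 of 4T1 the lower members at 0.05 numbered 11 (17% of all genes), and without CIX sample 2 of 67NR 7 members were called under CIX. The higher members at 0.05 numbered 1 without sample 7, 8 or 11 of 4T1, and 0 without sample 1, 5, 6, 9, 10 or 13 of 67NR. Values not past a threshold changed sign in 3 cases, with ranges over the left-out samples of -0.2526 to 0.0312 on the log2 scale for Sec61a1 in 4T1 (above 0 without vehicle sample 3 of 4T1), -0.1818 to 0.0876 for the interaction of Xbp1 (above 0 without the same sample) and -0.2348 to 0.1092 for that of Eif2ak3 (above 0 without CIX sample 6 of 67NR). No other member value recomputed changed sign, those being all 31 for CIX in each line and, for the other comparisons, the members past the threshold and those named with a value. Under the scalings tried, the median of all genes stayed between -0.068 and 0.01. No paired analysis was made, because the groups share no sample number and the labels name no set, batch or day that would pair them. The sample numbers run through the 4 groups in a repeating order, which the labels do not explain. Depth limits Derl3 and also Sec61g, which had 48.9 to 68 estimated counts per sample with CIX in 4T1, where counting error alone gives a coefficient of variation of 12.9%, the same as that between the samples.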
